A study of Mus musculus with 6 samples.

Results

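The collagen chains are the genes whose mouse symbol is Col, a number, a and a number, such as Col1a1 or Col4a3. That rule found 44 of the 56941 genes in the deposited count table, and it reads names alone and no measured value. Members and gene lists were, however, chosen with earlier results of these data known. Cells had been isolated from mouse lungs with magnetic beads as primary endothelial cells, and titles abbreviate them as PAECs. They were kept in endothelial medium with serum after removal of dead cells, and polyA RNA was sequenced. The 3 libraries of the control group, FL, carry the genotype label FUNDC1-FLOX. The 3 libraries of the other group, EC-KO, carry the label FUNDC1-KO. For neither group do the labels give age, Cre driver, strain or treatment. They do not say that replicates are different mice, so the p-values rest on a spread among libraries that may be technical.

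Collagens are secreted or membrane-bound trimers of alpha chains wound into a triple helix. Fibrillar collagens (types I, II, III, V, XI, XXIV and XXVII) form the banded fibrils that give tissue its tensile strength, and in the lung they are made mainly by fibroblasts. Basement membrane collagens include the sheet-forming type IV chains, with alpha 1 and alpha 2 in nearly all vessels and alpha 3, 4 and 5 in the membranes of alveoli and glomeruli, and the heparan sulfate or chondroitin sulfate bearing types XV and XVIII. The short-chain network collagens are types VIII and X, of which type VIII is known from the subendothelial matrix of vessels. The other classes are the beaded filaments of type VI, the FACITs (collagens bound to the surface of fibrils), transmembrane collagens, and the anchoring fibrils of type VII, grouped here with types XXVI and XXVIII.

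Total gene counts were 26.7 M to 34.3 M per library. Fundc1, the targeted gene and a mitophagy receptor of the outer mitochondrial membrane, was at 25.1, 32.0 and 30.7 CPM (counts scaled to library size) in FL 1, 2 and 3 and at 14.1, 18.2 and 12.8 CPM in EC-KO 1, 2 and 3 (a fall of the log2 level, -0.96 ± 0.19 with its SE, and edgeR's adjusted p = 0.00796). A gene count includes exons outside a deleted part. Marker genes of several lung cell types were detected, and none of the lists of endothelial, fibroblast, smooth muscle, epithelial and macrophage markers had a member without counts. In bulk samples, fewer cells of a type and less RNA per cell cannot be told apart. As background for the counts below, edgeR called 13.5% of all tested genes higher and 13.5% lower. Summed endothelial markers were at 10001 to 13976 CPM in FL and 3782 to 7574 CPM in EC-KO (9 of 15 lower by the test; the smallest p was that of Clec14a, with a log2 fold change of -3.17). Summed fibroblast markers, chosen without collagens, were at 607 to 848 CPM in FL and 985 to 2973 CPM in EC-KO. Of 15 tested, 8 were higher, with the smallest p for Serpinf1 at 3.52, and 1, Thy1, was lower at -0.69. Summed epithelial markers were at 1851 to 4376 and 11237 to 16779 CPM (13 of 14 higher, with the smallest p for Epcam at 2.20), and summed smooth muscle and pericyte markers at 642 to 898 and 310.5 to 453 CPM (9 of 12 lower, with the smallest p for Cspg4 at -1.32). Macrophage markers were at 5498 to 7227 and 2431 to 3249 CPM (9 of 10 lower, with the smallest p for Adgre1 at -2.30), and of 6 mesothelial markers Wt1 rose (1.21). Their part in the results on collagens was not tested. EC-KO 2 stood apart from EC-KO 1 and 3 on the second principal component of all tested genes (-62.8 against 18 and 39.0).

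More collagen chains were higher than lower in EC-KO. Of the 44 chains, 37 had enough counts to be tested, and in edgeR's quasi-likelihood test, with adjustment over all 18562 tested genes and a threshold of 0.05, 16 of them rose and 5 fell. Among all tested genes 13.5% were called higher and 13.5% lower. The share of tested chains called higher was 43.2% and the share called lower 13.5%, so the second equalled the background. The median log2 fold change of EC-KO over FL was 0.63 over the tested chains and 0.03 over all tested genes. All EC-KO libraries lay above all FL libraries for 19 tested chains and below them for 5, where 22.6% and 22.8% of all tested genes did so. The chains that rose were Col1a1, Col1a2, Col5a1, Col5a3, Col4a3, Col4a4, Col4a5, Col8a2, Col6a1, Col6a2, Col9a3, Col14a1, Col16a1, Col13a1, Col7a1 and Col28a1, and those that fell were Col2a1, Col11a1, Col15a1, Col8a1 and Col9a2. The number that rose was 7 when FL 1 was left out, 5 for FL 2, 7 for FL 3 and 10 for EC-KO 1. The number that fell was 2 when FL 2 or FL 3 was left out, 3 for EC-KO 1 and 8 for EC-KO 2. The number called among all genes also changed with the library left out, as the closing section gives. These counts are thus no result about collagens alone, and the 13.5% above holds for the fit of all libraries.

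**Figure D1:**
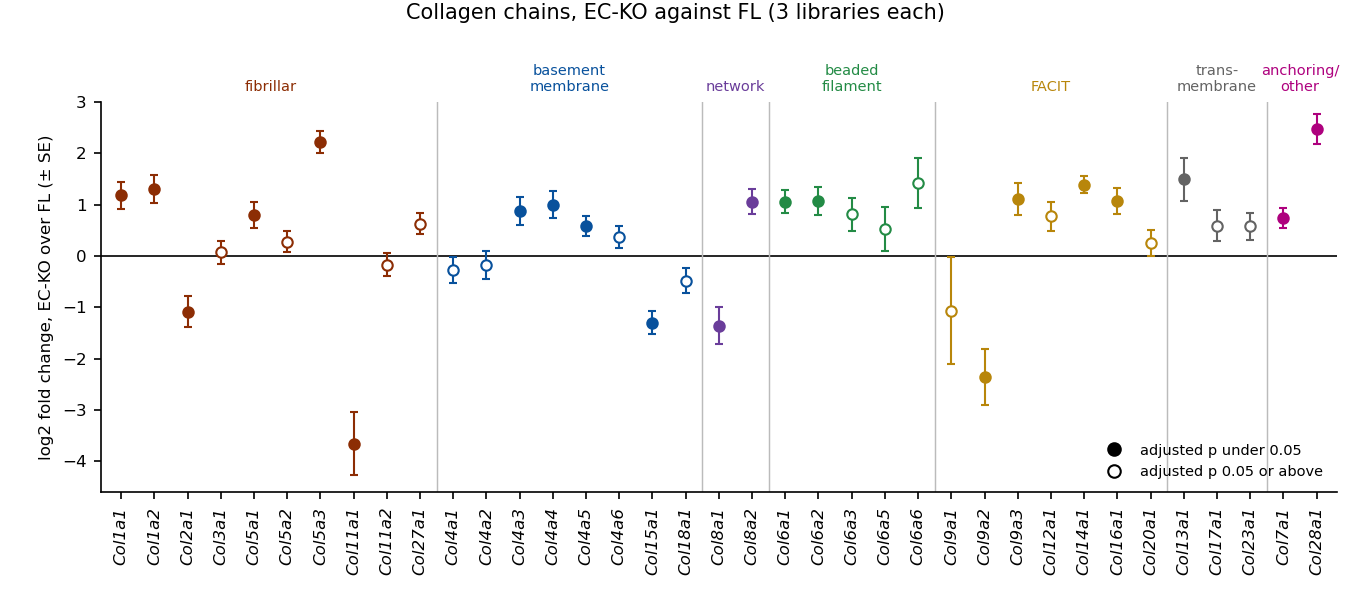
Log2 fold change of EC-KO over FL (points) with its standard error (bars) for the 37 collagen chains tested, grouped by class, with filled points for an adjusted p under 0.05. Values run from -3.66 (Col11a1) to 2.47 (Col28a1), and the network class holds a chain that rose beside one that fell.

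The vascular type IV chains Col4a1 and Col4a2 together held 60.2%, 62.3% and 61.4% of collagen counts in FL 1, 2 and 3. In EC-KO 1, 2 and 3 their share was 41%, 45% and 47.2%, below all FL libraries. All 44 chains together held 0.186%, 0.218% and 0.237% of counts in FL 1, 2 and 3, against 0.226%, 0.341% and 0.216% in EC-KO 1, 2 and 3. The totals of the groups overlapped and EC-KO 2 was the highest. To compare genes of unlike length, levels were divided by exonic length in kilobases (RPKM). Of the summed collagen RPKM of FL 1, 2 and 3, basement membrane chains made up 69.0%, 70.6% and 71.0%, against 47.8%, 51.5% and 54.5% in EC-KO 1, 2 and 3. Fibrillar chains made up 13.3%, 13.7% and 13.1% in FL, against 22.2%, 20.0% and 18.8% in EC-KO, and beaded filament chains 11.7%, 9.84% and 10.2% in FL, against 19.5%, 18.9% and 17.2% in EC-KO. For these 3 classes the shares of the groups did not overlap. Network chains held 0.475% to 0.595% in FL and 0.474% to 0.526% in EC-KO, and those ranges overlapped. FACITs held 2.40% to 2.73% in FL and 3.93% to 5.02% in EC-KO, and transmembrane chains 2.45% to 2.62% and 3.80% to 4.84%. These shares are descriptions with no test. In edgeR's test of single chains, 4 of 10 tested fibrillar chains rose and 2 fell (40.0% and 20.0%), with a median log2 fold change of 0.45. Of 8 basement membrane chains 3 rose and 1 fell (37.5% and 12.5%), with a median of 0.09. The background was 13.5% of all tested genes in each direction.

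**Figure D2:**
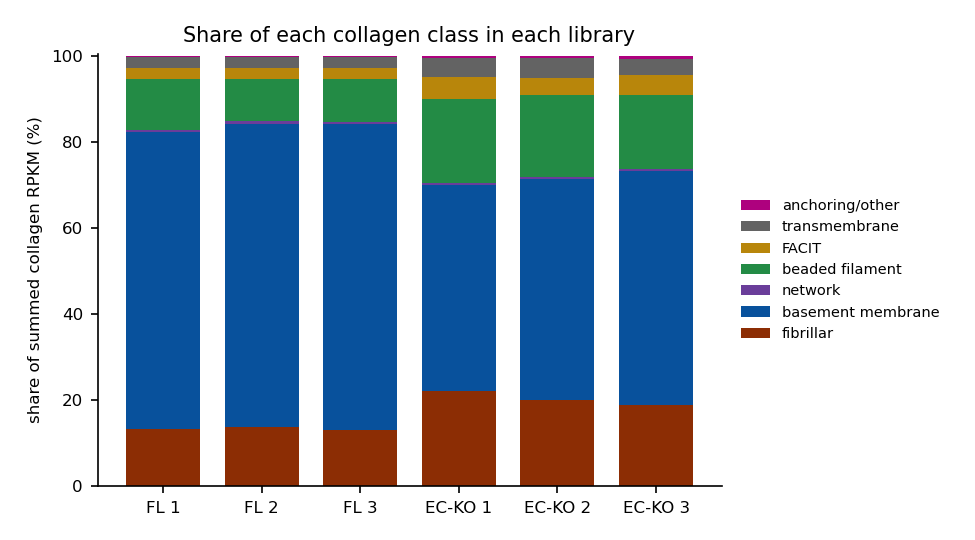
Share of summed collagen RPKM held by each class (stacked bars, percent) in each of the 6 libraries. Basement membrane chains hold 69.0% to 71.0% in FL and 47.8% to 54.5% in EC-KO.

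By RPKM, Col4a1 (113 in FL and 93.0 in EC-KO, group means) and Col4a2 (76.9 and 67.7) were the most abundant chains in both groups. Col6a1 followed at 19.2 in FL and 40.1 in EC-KO. In FL the next were Col3a1 (10.9), Col1a1 (10.8) and Col18a1 (10.7), which did not differ beyond the spread of their libraries (SD 1.17, 2.22 and 3.0). In EC-KO the next were Col1a1 (24.4, SD 8.69), Col1a2 (19.9, SD 7.64) and Col6a2 (18.1, SD 7.25), ahead of Col3a1 (11.5, SD 3.64). The lengths are those of all exons of a gene's transcripts, so a gene with long minor transcripts has an RPKM that is too low, and the order of near neighbours is uncertain for that reason.

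**Figure D3:**
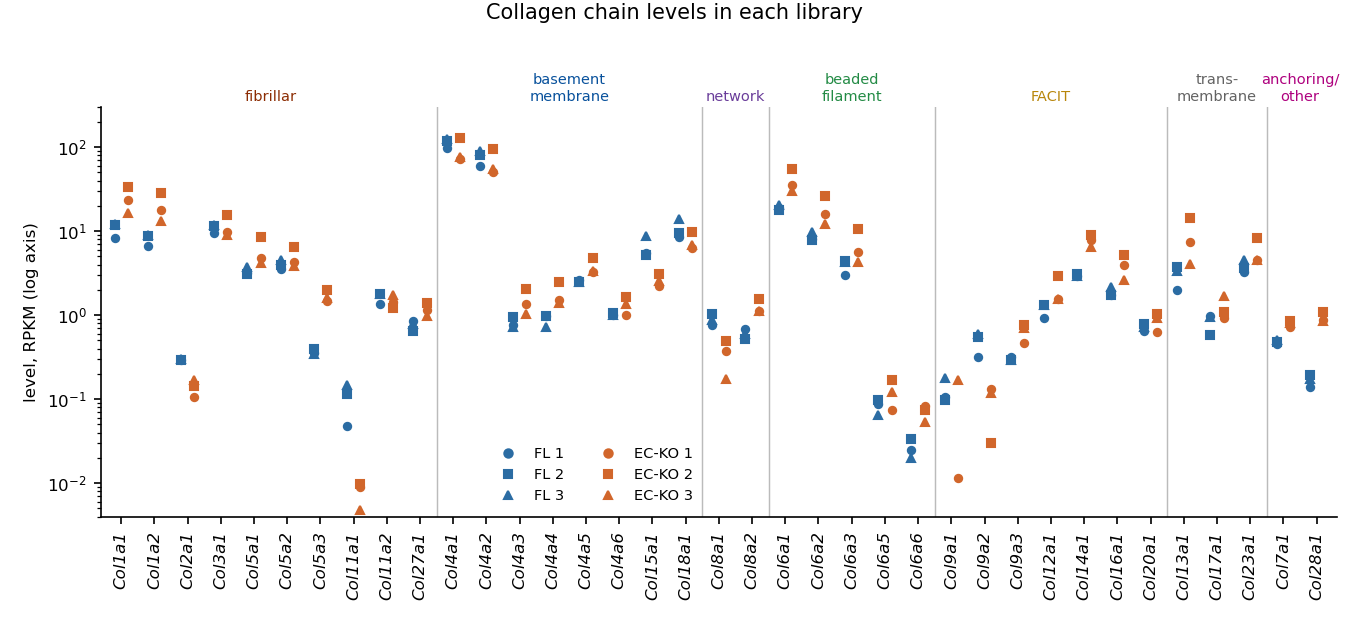
Level of the 37 tested collagen chains in RPKM on a log axis, with 1 point per library (blue FL, orange EC-KO, marker shape by replicate number). Col4a1 and Col4a2 are the highest in all libraries, and the EC-KO points of Col5a3 and Col28a1 lie above all FL points. A count of 0, for Col9a1 in EC-KO 2, is not drawn.

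Type I collagen, the main fibril of lung adventitia and interstitium, rose in both of its chains, and type III did not pass the test. Col1a1 was at 54.1, 78.7 and 80.0 CPM in FL 1, 2 and 3 and at 154, 220.5 and 107 CPM in EC-KO 1, 2 and 3, means of 70.9 ± 14.6 and 160.4 ± 57.0 CPM (SD, n = 3 each). Its log2 fold change was 1.18 ± 0.27 (SE; edgeR's adjusted p = 0.0141). Col1a2, the partner chain of the type I trimer, was at 82.5, 108 and 111 CPM in FL and at 225, 351 and 165 CPM in EC-KO (1.30 ± 0.27, adjusted p = 0.00954). For both chains every EC-KO library was above every FL library, with EC-KO 2 the highest and EC-KO 3 the lowest of its group. Col1a1 counts were 0.656, 0.730 and 0.721 of those of Col1a2 in FL, against 0.684, 0.628 and 0.648 in EC-KO. The ratio of the chains overlapped between groups. Col3a1, the sole chain of type III, was at 94.0, 112 and 115 CPM in FL and 97.2, 154 and 87.5 CPM in EC-KO (0.07 ± 0.23, adjusted p = 0.830). Counts of Col1a1 were 0.576, 0.702 and 0.695 times those of Col3a1 in FL 1, 2 and 3 and 1.58, 1.43 and 1.22 times in EC-KO 1, 2 and 3. This ratio within a library does not depend on scaling, and its groups did not overlap. The call of Col1a1 was lost without FL 1 (0.98, adjusted p = 0.0502).

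The minor chains that join heterotypic fibrils differed among themselves. Col5a3, a chain of type V that is restricted to fewer tissues than its partners, was at 2.39, 2.72 and 2.34 CPM in FL and at 10.1, 13.7 and 11.0 CPM in EC-KO, the largest rise among the fibrillar chains (2.22 ± 0.22, edgeR adjusted p = 0.000529). Col5a1, the chain common to most type V trimers, was at 27.1, 26.2 and 32.4 CPM and 41.2, 72.6 and 35.9 CPM (0.80 ± 0.26, adjusted p = 0.0498). Col5a2 was at 34.3, 38.2 and 43.4 CPM and 41.3, 61.9 and 37.2 CPM (0.28 ± 0.21, adjusted p = 0.367). The groups of Col5a1 and Col5a3 did not overlap and those of Col5a2 did. Counts of Col5a3 were 0.0723 to 0.104 of those of Col5a1 in FL and 0.189 to 0.307 in EC-KO. Col27a1, a fibrillar chain best known from cartilage, was at 8.40 to 11.1 CPM in FL and 12.7 to 18.1 CPM in EC-KO. Its groups did not overlap and its adjusted p was 0.0513 (0.63 ± 0.21). Leaving out EC-KO 2 brought Col5a1 to 0.40 (adjusted p = 0.0696), and its call was also lost on leaving out FL 1 (0.135), FL 2 (0.153), FL 3 (0.105) or EC-KO 1 (0.0723). On the log2 scale the fibroblast markers of EC-KO 1, 2 and 3 averaged 1.42, 2.14 and 0.76 relative to FL, and the epithelial markers 2.12, 2.72 and 1.99. EC-KO 2 was the highest EC-KO library in both lists and for Col1a1, Col1a2, Col5a1, Col5a2 and Col5a3. EC-KO 3 was the lowest for these chains except Col5a3, for which EC-KO 1 was. EC-KO 2 was also the highest of its group for endothelial (-0.67), smooth muscle and pericyte (-0.61) and macrophage markers (-1.84). The part of RNA from any of these cell types in these results was not tested.

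Promoters are shown for Col5a3 and Col1a2, the fibrillar chains that rose with the smallest adjusted p, because their levels moved in the same direction. Of the 44 chains, 35 had a promoter window in the RefSeq table of build GRCm38.p6, and Col1a1 is not among them. The lines give the 250 bases before the RefSeq start, 5′ to 3′ on the gene's strand, with capitals for any match on either strand to a CCAAT box (CCAAT), a GC box (GGGCGG) or a TATA box (TATAAA). The first lies at chr6:4505368-4505617 on the plus strand and the second at chr9:20815068-20815317 on the minus strand.
Col1a2: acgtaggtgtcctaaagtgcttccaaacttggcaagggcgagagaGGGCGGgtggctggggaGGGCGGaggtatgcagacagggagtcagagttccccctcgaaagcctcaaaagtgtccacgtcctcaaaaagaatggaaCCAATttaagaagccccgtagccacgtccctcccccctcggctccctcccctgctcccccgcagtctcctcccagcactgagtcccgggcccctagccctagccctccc
Col5a3: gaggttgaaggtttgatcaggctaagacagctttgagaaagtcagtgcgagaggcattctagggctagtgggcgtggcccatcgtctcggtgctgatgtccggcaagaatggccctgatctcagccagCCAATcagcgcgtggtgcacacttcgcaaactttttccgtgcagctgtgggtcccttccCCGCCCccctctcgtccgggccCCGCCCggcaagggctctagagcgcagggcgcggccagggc
Both windows hold 1 CCAAT box and 2 GC boxes, and neither holds the TATA letters. A CCAAT box was in 12 of the 35 matched collagen windows, a GC box in 21 and a TATA box in 5. Among all 32817 windows of the same length in the table these letters were in 33.8%, 32.7% and 12.4%. Among the 12 matched chains that rose 5 had a CCAAT box and 8 a GC box, and among the 4 that fell 1 and 3 did. A match to these letters is a description and no evidence that a factor binds.

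Of the 5 chains that fell, 3 are known from cartilage, and all 3 were at low levels. Col2a1, the chain of type II collagen, was at 2.73, 2.72 and 2.80 CPM in FL and 0.982, 1.32 and 1.58 CPM in EC-KO (-1.09 ± 0.30, edgeR adjusted p = 0.0260). Col11a1, which joins type II fibrils, was counted 16, 48 and 62 times in FL 1, 2 and 3 and 4, 4 and 2 times in EC-KO 1, 2 and 3, the largest fall among the tested chains (-3.66 ± 0.61, adjusted p = 0.00356). Col11a1 met the minimum count of the filter only through the FL libraries, which favours a fall. Col9a2, a FACIT chain that decorates type II fibrils, was counted 26, 56 and 60 times in FL and 14, 3 and 12 times in EC-KO (-2.36 ± 0.55, adjusted p = 0.0146). In these 3 chains all EC-KO libraries were below all FL libraries. Col9a1, a partner of Col9a2 in type IX collagen, was counted 14, 16 and 30 times in FL and 2, 0 and 28 times in EC-KO, so EC-KO 3 lay within the FL range (-1.07 ± 1.04, adjusted p = 0.477, and -4.28, adjusted p = 0.0209, without EC-KO 3). A count of 0 in EC-KO 2 allows a level of up to 0.0941 CPM at 3 counts, for counting error alone. Col9a3, the remaining chain of type IX, went the other way, from 1.21, 1.13 and 1.13 CPM to 1.79, 2.98 and 2.72 CPM (1.11 ± 0.32, adjusted p = 0.0311). Part of that count is uncertain, since 6.07% of its exonic bases are shared with Tcfl5 on the opposite strand and the strand setting of the counting is not given in the sources used here. Col11a2, the partner of Col11a1, was at 9.29 to 12.3 CPM in FL and 8.31 to 12.1 CPM in EC-KO (-0.17 ± 0.22, adjusted p = 0.591).

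Of 7 cartilage markers outside the collagens 5 were tested, of which 2 fell and 1 rose. As shares that was 40.0% and 20.0%, where 13.5% of all tested genes were called in each direction. Cnmd, which encodes chondromodulin, fell by 1.79 on the log2 scale (adjusted p = 0.0414) and Comp, the cartilage oligomeric matrix protein, by 1.19 (adjusted p = 0.0450). The proteoglycan core Acan (-1.33, adjusted p = 0.101) and the link protein Hapln1 (-1.06, adjusted p = 0.0930) did not pass the test in edgeR. Sox9, a chondrocyte regulator that airway and tip epithelium also express, rose (2.10, adjusted p = 0.00443). The summed level of this list was 6.81 to 7.35 CPM in FL and 7.17 to 14.0 CPM in EC-KO, most of it Sox9 in EC-KO, and Matn3 was listed at 0 in all FL libraries. The part of cartilage RNA in the falls of Col2a1, Col11a1 and Col9a2 was not tested. Col2a1 lost its call on leaving out FL 1 (adjusted p = 0.0505), FL 2 (0.0737), FL 3 (0.0790) or EC-KO 1 (0.0928), and Col9a2 on leaving out FL 2 (0.0508) or FL 3 (0.0552). Col9a3 lost it for FL 1 (0.0678), FL 2 (0.0953), FL 3 (0.108), EC-KO 2 (0.0673) and EC-KO 3 (0.0944).

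Basement membrane chains split by type. The vascular chains Col4a1 and Col4a2 did not pass the test, Col15a1 fell, and Col4a3, Col4a4 and Col4a5 rose. Of the 8 chains of this class, all tested, 3 rose and 1 fell, with a median log2 fold change of 0.09. That was 37.5% and 12.5%, where 13.5% of all tested genes were called in each direction. Col4a1 was at 732, 873 and 931 CPM in FL and 539.9, 972 and 572 CPM in EC-KO (-0.28 ± 0.25, edgeR adjusted p = 0.425), and Col4a2 at 397, 542 and 589 CPM and 339, 638 and 367 CPM (-0.18 ± 0.27, adjusted p = 0.643). EC-KO 2 had the highest level of the 6 libraries for both, and EC-KO 1 and 3 were below all FL libraries. Without EC-KO 2 both were called lower (-0.64, adjusted p = 0.0146, for Col4a1, and -0.56, adjusted p = 0.0454, for Col4a2). Endothelial markers of EC-KO 1, 2 and 3 averaged -1.66, -0.67 and -1.63 (log2, relative to FL), so EC-KO 2 also had the highest endothelial markers of its group. EC-KO 2 was the highest of its group for fibroblast (2.14), epithelial (2.72), smooth muscle and pericyte (-0.61) and macrophage markers (-1.84) as well. The part of any of these cell types in the levels of Col4a1 and Col4a2 was not tested.

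Col15a1, a proteoglycan of the outer basement membrane zone of vessels, was at 34.5, 33.4 and 55.3 CPM in FL and 14.3, 19.4 and 16.2 CPM in EC-KO. Its means of 41.1 ± 12.4 and 16.6 ± 2.60 CPM (SD, n = 3 each) gave a log2 fold change of -1.30 ± 0.23 with an adjusted p of 0.00515 in edgeR, and the groups did not overlap. This fall was called under every alternative tried, with values from -1.46 to -1.06. Col18a1, whose cleaved end is endostatin, was at 59.5, 66.2 and 98.9 CPM in FL and 44.4, 68.3 and 47.8 CPM in EC-KO (-0.48 ± 0.24, adjusted p = 0.163), and was called lower without EC-KO 2 (-0.73, adjusted p = 0.0288). The promoter of Col15a1 is given as that of the basement membrane chain that fell, from chr4:47207762-47208011 on the plus strand in GRCm38.p6, with the same motifs searched.
Col15a1: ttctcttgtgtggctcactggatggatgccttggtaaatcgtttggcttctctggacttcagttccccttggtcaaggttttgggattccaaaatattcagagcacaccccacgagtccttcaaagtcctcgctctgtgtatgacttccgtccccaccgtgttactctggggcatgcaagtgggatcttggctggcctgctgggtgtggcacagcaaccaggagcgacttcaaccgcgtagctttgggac
None of the 3 motifs was found in this window, whose G and C content was 53.6%.

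The chains of the alveolar type IV network were at low levels in FL and higher in EC-KO. Col4a3 was at 7.54, 9.59 and 7.16 CPM in FL and 13.6, 20.4 and 10.3 CPM in EC-KO (0.87 ± 0.27, edgeR adjusted p = 0.0425). Col4a4 was at 10.5, 10.3 and 7.64 CPM and 16.2, 26.0 and 14.8 CPM (1.00 ± 0.26, adjusted p = 0.0206), and Col4a5 at 17.8, 16.6 and 16.6 CPM and 22.0, 31.8 and 22.6 CPM (0.58 ± 0.19, adjusted p = 0.0485). For all 3 the groups did not overlap, and EC-KO 2 was the highest library. Col4a6, which pairs with Col4a5 in another network, was at 8.01 to 8.56 CPM in FL and 7.97 to 13.1 CPM in EC-KO (0.37 ± 0.22, adjusted p = 0.249). Counts of Col4a1 were 97.0, 91.0 and 130.1 times those of Col4a3 in FL 1, 2 and 3 and 39.7, 47.7 and 55.3 times in EC-KO 1, 2 and 3. The part of the epithelial markers, which averaged 2.12, 2.72 and 1.99 in EC-KO 1, 2 and 3 (log2, relative to FL), in the levels of these chains was not tested. Col4a3 shares 5.65% of its exonic bases with a transcript on the opposite strand, C430014B12Rik, so part of its count is uncertain. Leaving out a library ended these calls in many cases: Col4a3 was kept without EC-KO 3, Col4a4 without FL 1, EC-KO 1, EC-KO 2 or EC-KO 3, and Col4a5 in no case (adjusted p = 0.0670 to 0.171). Col4a3 was at 0.53 and Col4a5 at 0.36 without EC-KO 2 (adjusted p = 0.0853 and 0.0800). The adjusted p of Col4a3 was 0.118 on leaving out FL 1, 0.0721 for FL 2, 0.159 for FL 3 and 0.0882 for EC-KO 1, and that of Col4a4 was 0.0587 for FL 2 and 0.0969 for FL 3.

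**Figure D4:**
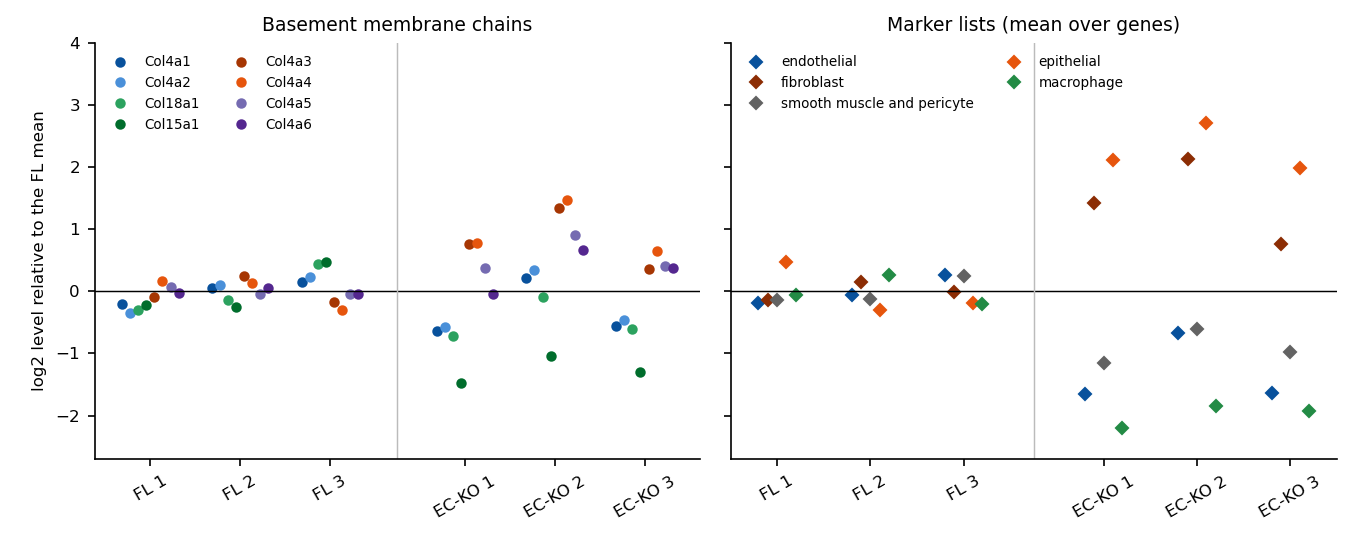
Left, log2 CPM of the 8 basement membrane chains in each library relative to their FL mean. Right, mean log2(CPM + 0.5) of 5 marker lists on the same axis. EC-KO 2 has the highest value among the EC-KO libraries for all 8 chains and all 5 lists. Its list values are -0.67 (endothelial), 2.14 (fibroblast), -0.61 (smooth muscle and pericyte), 2.72 (epithelial) and -1.84 (macrophage).

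The 6 type IV genes lie head to head in 3 pairs, and partners in a pair had similar fold changes. In the coordinates of the count table, Col4a1 (chromosome 8, 11248423 to 11362826, minus strand) and Col4a2 (11362805 to 11499287, plus strand) overlap by 22 bases at their starts. Col4a4 (chromosome 1, 82426144 to 82564570, minus) and Col4a3 (82564642 to 82699780, plus) have 71 bases between them, and Col4a6 (chromosome X, 139948399 to 140257072, minus) and Col4a5 (140258381 to 140472230, plus) have 1308. Of the 2386 collagen exons in the table, 99.8% have the length of an exon of the same gene in GENCODE vM21 on GRCm38, but 6.83% have its position. These coordinates are thus not those of mm10, the build that the processing notes name, and their own build is unresolved. The pairs had values of -0.28 and -0.18, 1.00 and 0.87, and 0.37 and 0.58. In the last pair Col4a5 was called and Col4a6 was not. Some partners without this arrangement were as close: Col1a1 and Col1a2 on chromosomes 11 and 6 (1.18 and 1.30), and Col6a1 and Col6a2, 85.2 kb apart (1.06 and 1.07). Others were not, such as Col8a1 and Col8a2 (-1.36 and 1.06) or Col9a2 and Col9a3 (-2.36 and 1.11). Count ratios within pairs overlapped between groups: Col4a1 to Col4a2 was 1.58 to 1.84 in FL and 1.52 to 1.59 in EC-KO, Col4a3 to Col4a4 was 0.721 to 0.936 and 0.700 to 0.841, and Col4a5 to Col4a6 was 1.94 to 2.20 and 2.12 to 2.76. The stretch between the RefSeq starts of Col4a4 and Col4a3 is shown because both genes rose and start at its ends. It lies at chr1:82586850-82586920 in GRCm38.p6 and is written 5′ to 3′ on the minus strand, the strand of Col4a4, with no capitals because none of the 3 motifs occurred in it.
Col4a4 to Col4a3: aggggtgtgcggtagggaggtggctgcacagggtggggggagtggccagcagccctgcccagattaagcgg
Its G and C content was 69.0%. Type IV pairs share this arrangement in other mammals, where a common promoter serves both genes of a pair. The part of a common promoter in the values above was not tested.

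The network class held opposite changes. Col8a1, a type VIII chain made by endothelial and smooth muscle cells, was at 5.99, 8.01 and 6.79 CPM in FL and 2.92, 3.83 and 1.36 CPM in EC-KO (-1.36 ± 0.36, edgeR adjusted p = 0.0227). Col8a2, the other type VIII chain, was at 3.11, 2.32 and 2.71 CPM and 5.05, 6.90 and 4.98 CPM (1.06 ± 0.25, adjusted p = 0.0158). In neither gene did the groups overlap. Counts of Col8a2 were 0.519, 0.290 and 0.399 times those of Col8a1 in FL 1, 2 and 3 and 1.73, 1.80 and 3.66 times in EC-KO 1, 2 and 3, so Col8a1 had more counts in every FL library and Col8a2 in every EC-KO library. Col10a1, the chain of hypertrophic cartilage, was counted 6, 6 and 15 times in FL and 4, 28 and 6 times in EC-KO and was not tested. Col8a1 lost its call on leaving out FL 2 (adjusted p = 0.0779), FL 3 (0.0632) or EC-KO 1 (0.0664), and Col8a2 on leaving out FL 2 (0.0687) or FL 3 (0.0675). Smooth muscle and pericyte markers of EC-KO 1, 2 and 3 averaged -1.16, -0.61 and -0.98 (log2, relative to FL), and their part in the level of Col8a1 was not tested.

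Type VI collagen, the beaded filament that links cells to the interstitial matrix, had 5 tested chains. Col6a1 and Col6a2 rose (40.0%, where 13.5% of all tested genes rose) and the other 3 did not pass the test. Col6a1 was at 82.7, 79.1 and 90.4 CPM in FL and 154, 241 and 132 CPM in EC-KO (1.06 ± 0.23, edgeR adjusted p = 0.0105), and Col6a2 at 68.0, 65.9 and 81.9 CPM and 134, 218 and 100.4 CPM (1.07 ± 0.27, adjusted p = 0.0194). All EC-KO libraries were above all FL libraries for both. Counts of Col6a1 were 1.10 to 1.22 times those of Col6a2 in FL and 1.11 to 1.32 times in EC-KO. Col6a3, the long chain of the trimer, was at 36.0, 52.5 and 51.0 CPM and 66.8, 127 and 51.5 CPM, with EC-KO 3 within the FL range (0.81 ± 0.32, adjusted p = 0.0863, and 1.05, adjusted p = 0.0388, without EC-KO 3). Of the chains that can stand in for it, Col6a5 was at 0.609 to 0.917 CPM and 0.693 to 1.57 CPM (0.53 ± 0.43, adjusted p = 0.386) and Col6a6 at 0.183 to 0.306 CPM and 0.495 to 0.751 CPM (1.42 ± 0.48, adjusted p = 0.0561). Col6a1 lost its call on leaving out FL 2 (adjusted p = 0.0502), and Col6a2 on leaving out FL 1 (0.0633), FL 2 (0.0784) or FL 3 (0.0556). Without EC-KO 2 the value of Col6a2 was 0.67.

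Among FACITs, 3 of 7 tested chains rose and 1, Col9a2, fell. These shares were 42.9% and 14.3%, where 13.5% of all tested genes were called in each direction. Col14a1, which lies on type I fibrils and marks fibroblasts, was at 20.6, 21.5 and 20.3 CPM in FL and 54.8, 63.4 and 45 CPM in EC-KO, means of 20.8 ± 0.622 and 54.4 ± 9.20 CPM (SD, n = 3 each). Its log2 fold change was 1.39 ± 0.17 with an adjusted p of 0.00109 in edgeR, and it was called under every alternative (1.23 to 1.49). Col16a1, found near fibrils and fibrillin, was at 11.7, 11.7 and 14.6 CPM and 26.7, 35.5 and 17.7 CPM (1.07 ± 0.26, adjusted p = 0.0157). Col12a1, the partner of type I fibrils in dense tissue, was at 14.1 to 20.2 CPM in FL and 23.7 to 44.9 CPM in EC-KO. Its groups did not overlap and it did not pass the test (0.77 ± 0.28, adjusted p = 0.0711). Col20a1 was at 3.30 to 4.06 CPM and 3.23 to 5.24 CPM (0.25 ± 0.26, adjusted p = 0.505). Col16a1 lost its call on leaving out FL 1 (adjusted p = 0.0540), FL 2 (0.0666) or EC-KO 1 (0.0513).

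The largest rise among the tested chains was that of Col28a1, a collagen of the type VI family known from peripheral nerve. It was at 0.682, 0.947 and 0.853 CPM in FL and 4.27, 5.39 and 4.17 CPM in EC-KO (2.47 ± 0.29, edgeR adjusted p = 0.000891), and was called under every alternative (2.31 to 2.57). Col7a1, the anchoring fibril of epithelial basement membranes, was at 4.62, 4.92 and 5.15 CPM and 7.39, 8.81 and 8.35 CPM (0.74 ± 0.20, adjusted p = 0.0243). Col13a1, a transmembrane collagen of adhesion sites, was at 9.44, 17.6 and 15.8 CPM and 34.7, 66.5 and 19.3 CPM (1.49 ± 0.42, adjusted p = 0.0296). In these 3 chains the groups did not overlap, although EC-KO 3 was close to FL 2 for Col13a1. Col17a1, the hemidesmosome collagen of epithelium, was at 3.45 to 5.84 CPM and 5.63 to 10.3 CPM (0.59 ± 0.30, adjusted p = 0.180), and Col23a1 at 19.0 to 26.3 CPM and 25.7 to 47.3 CPM (0.58 ± 0.26, adjusted p = 0.130). Col13a1 lost its call on leaving out FL 1 (adjusted p = 0.0911), FL 2 (0.0615), FL 3 (0.0838), EC-KO 1 (0.0641) or EC-KO 2 (0.0614, with a value of 0.88). Col7a1 lost it for FL 1 (0.0747), FL 2 (0.0852), FL 3 (0.0834), and for EC-KO 1 (0.0524) or EC-KO 3 (0.0756).

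The 7 chains with too few counts to be tested were Col24a1, Col10a1, Col6a4, Col19a1, Col22a1, Col25a1 and Col26a1. Col22a1, known from tissue junctions, was counted 1, 2 and 3 times in FL and 20, 8 and 8 times in EC-KO, and its groups did not overlap. Each of Col24a1, Col6a4, Col19a1, Col25a1 and Col26a1 had between 0 and 17 counts in every library, with overlapping groups.

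Of the genes that modify, cleave and crosslink collagen chains, 36 of 37 were tested, 9 rose and 4 fell. The median was 0.05, and the background is that of all genes (13.5% in each direction). Among 15 prolyl and lysyl modification genes, which act in the endoplasmic reticulum, 1 rose and 2 fell. P4ha3, a catalytic subunit of prolyl hydroxylase at 0.0939 CPM in FL, rose (2.35, edgeR adjusted p = 0.0288). It was counted 1, 2 and 6 times in FL and 13, 20 and 17 times in EC-KO. P4ha3 thus met the minimum count of the filter only through the EC-KO libraries, which favours a rise. The galactosyltransferase Colgalt1 (-1.04, adjusted p = 0.00200) and the lysyl hydroxylase Plod1 (-0.97, adjusted p = 0.0289) fell. P4hb, the most abundant of them, was at 468 CPM in FL and 388 CPM in EC-KO (-0.27, adjusted p = 0.322). Among 8 folding and export genes Creb3l1, a transcription factor that drives collagen secretion, rose (1.93, adjusted p = 0.00238), and the collagen chaperone Serpinh1 was at 149.7 CPM on average in FL, against 136 CPM in EC-KO (-0.14, adjusted p = 0.803).

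Of 7 tested propeptide processing genes, which act on procollagen at or outside the cell surface, 5 rose and 1 fell (71.4% and 14.3%). For each list in this paragraph the background is 13.5% of all tested genes in each direction. Those that rose were the N-propeptidases Adamts2 (2.0, edgeR adjusted p = 0.00209), Adamts14 (1.71, adjusted p = 0.000983) and Adamts3 (1.66), and the C-proteinase enhancers Pcolce (1.49, adjusted p = 0.0109) and Pcolce2 (1.42). The C-proteinase Tll1 fell (-1.90, adjusted p = 0.00185), and Bmp1, the main C-proteinase, was at 0.52 (adjusted p = 0.107). Adamts2 was at 11.1, 14.9 and 14.0 CPM in FL and 45.7, 79.2 and 36.1 CPM in EC-KO. Of 6 crosslinking enzymes the lysyl oxidases Lox (1.74, adjusted p = 0.00774) and Loxl1 (1.25, adjusted p = 0.0344) rose, and Pxdn, the peroxidase that crosslinks type IV collagen, fell (-0.75, adjusted p = 0.0492). Of 7 small proteoglycans that bind fibrils 4 rose, among them Dcn (2.90, adjusted p = 0.000673), Lum (2.79, adjusted p = 0.00117) and Fmod (1.52, adjusted p = 0.00600), and Aspn fell (-1.28, adjusted p = 0.00500). The remaining one that rose was Bgn, the most abundant of the 4, at 362, 394 and 423 CPM in FL and 786, 1419.9 and 538 CPM in EC-KO (1.22, edgeR adjusted p = 0.0227). Bgn lost its call on leaving out FL 1 (0.0714), FL 2 (0.0767) or FL 3 (0.0745), and was at 0.72 without EC-KO 2. Dcn was at 64.4, 36.4 and 44.6 CPM in FL and 366, 487 and 234 CPM in EC-KO. Dcn and Lum are known fibroblast genes, and the part of fibroblast RNA in their rise was not tested.

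Of 11 partners of type IV collagen in basement membranes 3 rose, the laminin chains Lama2 (1.71, edgeR adjusted p = 0.00630), Lama3 (1.09, adjusted p = 0.0125) and Lamb1 (1.30, adjusted p = 0.0193). Nid1 (0.10, adjusted p = 0.803) and Hspg2, which encodes perlecan (-0.08, adjusted p = 0.800), did not pass the test. Of 9 collagen receptors Itga1, the alpha subunit of the main endothelial receptor for type IV collagen, fell (-1.65, adjusted p = 0.00240), as did the leukocyte receptor Lair1 (-1.55, adjusted p = 0.00524). The discoidin receptor Ddr1 of epithelium (1.10, adjusted p = 0.0118) and the uptake receptor Mrc2 (1.35, adjusted p = 0.0341) rose. So 27.3% of the partners rose, and 22.2% of the receptors rose and 22.2% fell. Among all tested genes 13.5% were called in each direction. Itgb1 was at 958 CPM in FL and 614 CPM in EC-KO (-0.64, adjusted p = 0.0665). Macrophage markers of EC-KO 1, 2 and 3 averaged -2.20, -1.84 and -1.92 (log2, relative to FL) beside the fall of Lair1, and their part was not tested.

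Some of these calls were lost when a library was left out, which also leaves fewer samples. Without any 1 library P4ha3 stayed between 2.0 and 3.21, Plod1 between -1.34 and -0.82 and Adamts3 between 1.33 and 2.33. On leaving out FL 2, edgeR's adjusted p was 0.108 for P4ha3, 0.0919 for Plod1, 0.0665 for Pcolce2, 0.0991 for Loxl1, 0.115 for Pxdn, 0.0502 for Lama3, 0.0551 for Lamb1 and 0.0502 for Ddr1. On leaving out FL 1 it was 0.0840 for P4ha3, 0.107 for Adamts3, 0.0846 for Pcolce2, 0.0813 for Loxl1, 0.0669 for Lamb1 and 0.105 for Mrc2. On leaving out FL 3 it was 0.0959 for Plod1, 0.146 for Adamts3, 0.0792 for Pcolce2, 0.117 for Loxl1, 0.160 for Pxdn, 0.0557 for Lama3, 0.0692 for Lamb1 and 0.125 for Mrc2. For EC-KO 1 it was 0.0633 for P4ha3, 0.108 for Plod1, 0.0789 for Adamts3, 0.0589 for Pcolce2, 0.0605 for Loxl1, 0.161 for Pxdn, 0.0502 for Lamb1 and 0.0575 for Mrc2. For EC-KO 3 it was 0.0812 for P4ha3, 0.0844 for Plod1, 0.0709 for Adamts3 and 0.138 for Pxdn. Without EC-KO 2, P4ha3 (0.0607), Adamts3 (0.0963) and Mrc2 (0.0529) lost their calls, and the log2 fold change was 0.98 for Pcolce, 0.83 for Pcolce2, 0.63 for Loxl1, 0.81 for Lamb1 and 0.72 for Mrc2. The calls of Colgalt1, Creb3l1, Adamts2, Adamts14, Tll1, Pcolce, Lox, Dcn, Lum, Fmod, Aspn, Lama2, Itga1 and Lair1 held on leaving out any 1 library.

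**Figure D5:**
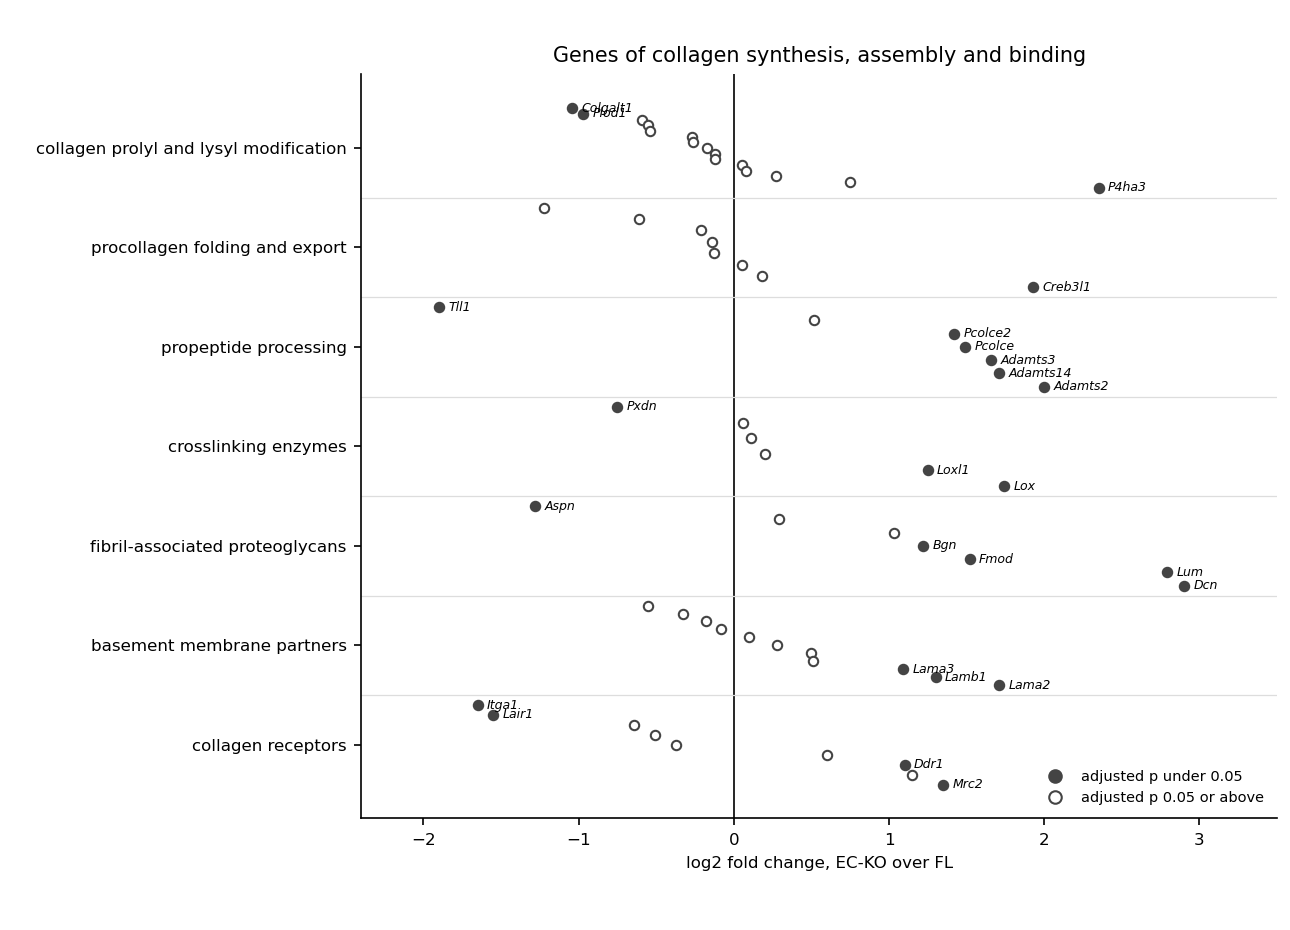
Log2 fold change of EC-KO over FL for tested genes of 7 lists around collagen synthesis and binding, 1 point per gene, filled and named where the adjusted p was under 0.05. The 5 propeptide processing genes that rose lie between 1.42 and 2.0, and Dcn (2.90) and Lum (2.79) are farthest to the right.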

How the data were processed

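Values are raw counts for each Ensembl gene, deposited by the authors in featureCounts layout per the file headers, and a summary of alignment classes, also counts. STAR 2.7.10b, featureCounts 2.0.3 and mm10 appear in the submitters' processing notes, which assign them no role. The strand setting and annotation release were not found in the labels or headers. A pair of extra sample columns (2) in the table matched no label and was not used. Symbols were found for 51948 of 56941 identifiers.

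Counts were filtered with filterByExpr (minimum count 10, minimum total 15), scaled with TMM and tested with edgeR 4.0.16 in R 4.3.3 (robust quasi-likelihood F test, two-sided, Benjamini-Hochberg over all 18562 genes kept, threshold 0.05). CPM are counts over the TMM-scaled library size. Each SE is the absolute log2 fold change over the square root of F. The procedure was tested on simulated data with changes placed only in genes above a minimum level, so genes at the lowest levels were not covered. Only a small part of the genes was changed there, so data with as large a share of genes called as here were not covered either. Alternatives used limma 3.58.1, DESeq2 1.42.0, other scalings and filters, the replicate number as a block, and each library left out.

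Members and lists were chosen with earlier results of these data known. All chains are named. In each pathway list up to 3 called genes per direction with the smallest p were named, or the most abundant gene where none was called. In marker lists the called gene of smallest p per direction was named. Adamts3, Pcolce2, Bgn, Serpinh1, Bmp1, P4hb, Nid1, Hspg2, Itgb1, Comp, Acan, Hapln1 and Matn3 were chosen after their values were seen.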

Additional observations from a re-analysis of the deposited data

How the results depend on the processing

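Of the 21 collagen chains called, 6 (Col1a2, Col5a3, Col11a1, Col15a1, Col14a1 and Col28a1) were called under every alternative that tested them. Col11a1, which met the minimum count of the main filter only through FL, was tested in 13 of the 14 alternatives. The others of these 6 were tested in all 14. The remaining 15 were lost under at least 1, and none of the 21 changed direction. Of the 16 chains tested and not called, 8 were called under some alternative. With a filter of 1 CPM in 3 libraries 3 chains fell, of them 1 fibrillar. Col11a1 and Col9a2 did not pass this filter and were not tested under it. With the replicate number as a block 12 chains rose and 4 fell, of them 1 fibrillar. Deviations of same-numbered libraries correlated at 0.0494, 0.0697 and -0.181, and 2 of 6 libraries correlated best with their own number. With so few libraries this check cannot tell whether same-numbered libraries were paired, and the labels name no pairing. With limma-voom 1 basement membrane chain rose, and with DESeq2 19 chains rose and 5 fell. The cause of the differences under the other alternatives was not tested.

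Leaving out each library in turn, the range was 1169 to 3009 for all genes called higher and 1314 to 3731 for all genes called lower. For collagens it was 5 to 14 higher and 2 to 8 lower, for fibrillar chains 2 to 4 and 1 to 2, for basement membrane chains 0 to 2 and 1 to 4, and for network chains 0 to 1 in each direction. Genes of collagen biosynthesis ranged from 5 to 8 higher and from 2 to 11 lower. The counts of 0 came from edgeR without FL 2 or FL 3, where at an unadjusted p under 0.05 there were 3 and 2 basement membrane chains higher and 1 network chain in each direction, and without EC-KO 1, with 1 network chain lower. With all 6 libraries edgeR called 2515 genes higher and 2514 lower, so leaving out a library raised the number for all genes in some cases. Fewer samples can lower it, and the part of sample number in these changes was not tested. Chains under about 10 counts a library, such as Col22a1, could not be judged at this depth.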
